A study of Homo sapiens with 6 samples.

Results

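Epithelial lineage transcription factors are the DNA-binding proteins that set up and hold the epithelial state. They were followed in COV434, a long-used human cell line treated by the study as a model of SCCOHT, the hypercalcemic form of small cell ovarian carcinoma, which has lost the SWI/SNF ATPase BRG1. The 9 genes were TP63, GRHL1, GRHL2, GRHL3, OVOL1, OVOL2, KLF4, KLF5 and TFAP2C, taken by name from a count table of 19899 genes, and all 9 were present in it. Control cells (n = 3) received pCDNA3-neo and BRG1 cells (n = 3) received PBJ5-BRG1, and both groups also carried pBABE-puro, a plasmid for puromycin resistance. Selection at 2 to 3 µg/ml puromycin began 24 hours after transfection and lasted 3 days, and RNA was then sequenced from the pellets. The samples are of 1 cell line after transient transfection, so that they report on the cells that survived selection. Values are bulk levels, in which more cells with a transcript and more transcript per cell cannot be told apart.

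These factors act in layers. p63, encoded by TP63, is the master regulator of the basal layer of stratified epithelium. The grainyhead-like factors GRHL1, GRHL2 and GRHL3 activate junction and barrier genes, and the OVO-like zinc fingers OVOL1 and OVOL2 repress the factors of the epithelial-mesenchymal transition. KLF4 and KLF5 are Krüppel-like zinc finger proteins, of which KLF4 is known for differentiating and KLF5 for proliferating epithelial cells. TFAP2C encodes AP-2 gamma, a factor of the trophectoderm, the mammary gland and the skin.

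KLF5 was the one factor of the 9 that rose in the comparison without pairing, by 13.4-fold. KLF4 and TFAP2C were called in the fits paired by replicate number and not in the unpaired fit. TP63, GRHL2, OVOL1 and OVOL2 were scarcely counted in both groups, with at most 10.6 normalised counts in any sample. The transfected gene, SMARCA4, lay between 1439 and 1676 normalised counts in Control and between 78589 and 108655 in BRG1 samples, with plasmid transcripts included. SMARCA2, the gene of the other ATPase, which SCCOHT cells lack, lay between 3.79 and 23.1 in Control and between 5.97 and 35.7 in BRG1 samples. Library totals ran from 29699700 to 63613700 estimated counts, with BRG1 sample 3 the shallowest. A normalised count is an estimated count divided by the library's DESeq2 size factor, and 1 count corresponded to between 0.725 and 1.49 normalised counts.

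KLF5 and KLF4 had the highest levels of the 9, and the sequence before their start sites is shown because the results turn on these genes. The windows hold the 250 bases before each RefSeq start (GRCh38.p14), 5′ to 3′ on the strand of the gene, and none of these bases lies in a GENCODE exon. Capitals mark the GC box GGGCGG or its reverse complement, the site of SP and Krüppel-like factors. KLF5 has 2 starts in RefSeq, the upstream one at chr13:73054726-73054975 and the downstream one at chr13:73058755-73059004, both on the plus strand, and KLF4 has 1 window at chr9:107489770-107490019 on the minus strand.
KLF5 upstream start: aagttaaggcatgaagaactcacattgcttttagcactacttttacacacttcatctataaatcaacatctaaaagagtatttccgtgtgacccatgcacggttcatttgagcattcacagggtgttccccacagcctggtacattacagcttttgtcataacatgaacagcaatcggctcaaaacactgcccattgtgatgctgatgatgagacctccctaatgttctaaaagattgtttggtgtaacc
KLF5 downstream start: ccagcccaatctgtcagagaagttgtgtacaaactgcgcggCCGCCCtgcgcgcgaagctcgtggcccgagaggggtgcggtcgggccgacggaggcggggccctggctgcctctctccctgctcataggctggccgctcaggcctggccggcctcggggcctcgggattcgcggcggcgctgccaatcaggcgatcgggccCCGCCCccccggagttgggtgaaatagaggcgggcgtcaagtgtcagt
KLF4: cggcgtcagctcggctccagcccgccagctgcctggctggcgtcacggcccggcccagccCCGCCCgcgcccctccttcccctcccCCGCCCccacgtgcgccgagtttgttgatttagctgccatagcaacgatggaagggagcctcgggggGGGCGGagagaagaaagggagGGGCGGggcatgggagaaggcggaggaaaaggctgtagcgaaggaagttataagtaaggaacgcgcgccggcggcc

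The windows differed in base composition and in GC boxes. The upstream KLF5 window was 40.8% G and C and held 0 GC boxes, whereas the downstream KLF5 window was 70.8% G and C with 2 boxes and the KLF4 window was 69.2% with 4. Over all 35116 RefSeq windows of the same length, 42.6% held at least 1 GC box. The AP-1 motif TGANTCA, which reads the same on both strands, was found in 0 of these 3 windows and in 6.57% of all windows. The CACCC box CCACCC, the grainyhead motif AACCGGTT and the interferon-stimulated response element, searched on both strands, also had 0 matches in the 3 windows, against 31.3%, 0.117% and 3.02% of all windows. These matches describe letters in short windows only. Windows were found for 5 of the 9 factors, of which those of TP63, GRHL1 and GRHL3 are not printed. For GRHL2, OVOL1, OVOL2 and TFAP2C no window was available.

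KLF5 (chromosome 13, 73054976 to 73077541, GRCh38) was examined first as the factor with the largest change. Control samples 1 to 3 held 267, 177 and 119.6 normalised counts, and BRG1 samples 1 to 3 held 3838, 2481 and 1210.5. Every BRG1 sample lay above every Control sample, with BRG1 sample 1 the highest and BRG1 sample 3 the lowest of its group. The means were 188 ± 74.2 and 2509.9 ± 1314 (SD, n = 3). The DESeq2 log2 fold change was 3.74 ± 0.42 (SE) (adjusted p 4.5e-17), which is a fold of 13.4 with a 95% interval of 7.55 to 23.8. edgeR gave an adjusted p of 0.00176 and limma-voom one of 0.00554. Within replicate numbers 1 to 3 the fold was 14.4, 14.01 and 10.1. The plasmid gene SMARCA4 was also highest in BRG1 sample 1, at 108655 normalised counts against 79075 and 78589 in samples 2 and 3, and its part in the spread of KLF5 was not tested.

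**Figure D1:**
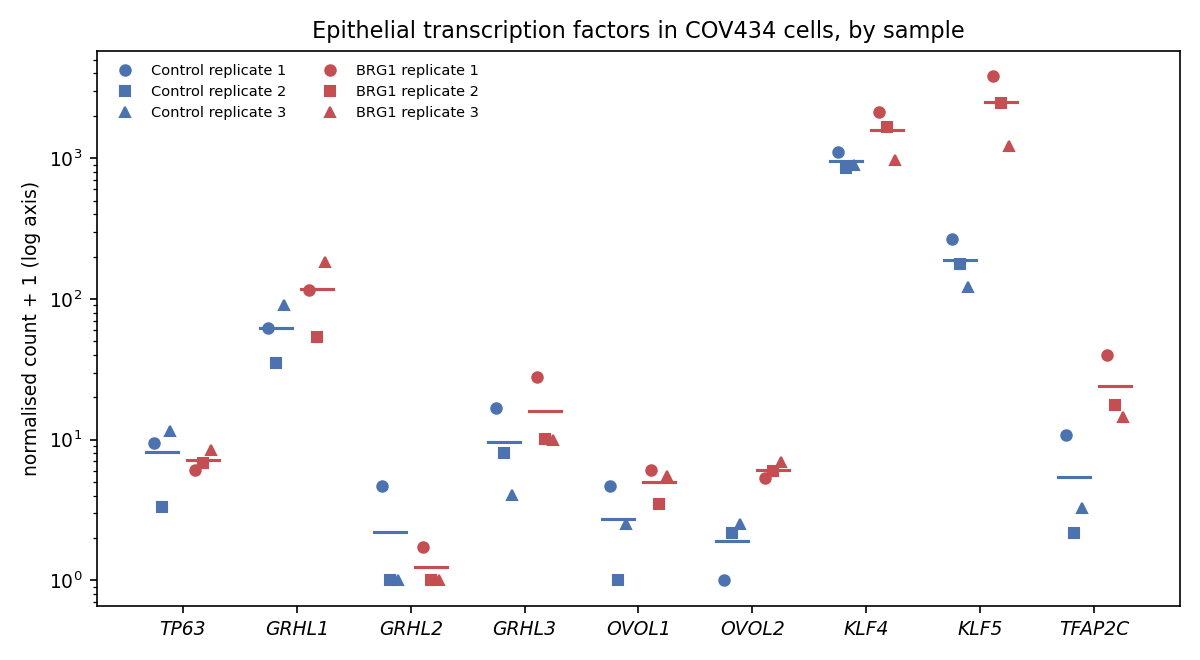
Normalised counts plus 1 (log axis) of the 9 factors in each sample, with Control in blue, BRG1 in red, marker shapes for replicate numbers 1 to 3 and bars at the group means. KLF5 separates the groups widely, from 119.6 to 267 in Control and from 1210.5 to 3838 in BRG1 samples, KLF4 is high in both groups, and most other factors lie near the floor.

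KLF4 (chromosome 9, 107484852 to 107490482) was already abundant without BRG1. Its normalised counts were 1102, 854 and 900.2 in Control samples 1 to 3 and 2135, 1663 and 976 in BRG1 samples 1 to 3. The groups overlapped, because BRG1 sample 3 lay below Control sample 1. The log2 fold change was 0.74 ± 0.29 (SE), a fold of 1.67, and was not called (DESeq2 adjusted p 0.0788, edgeR adjusted p 0.164). With the replicate number as a block, KLF4 rose by 0.68 on the log2 scale (DESeq2 adjusted p 0.00424, edgeR adjusted p 0.0317). Within numbers the fold was 1.94, 1.95 and 1.08, so that replicate 3 barely moved. Without BRG1 replicate 3, DESeq2 called the gene, at 1.00 on the log2 scale (adjusted p 2.7e-05). In the other fits that left out a sample KLF4 was not called. The lowest value was 0.48 without BRG1 replicate 1 (DESeq2 adjusted p 0.467). Exons of an antisense gene cover 9.75% of the exonic bases of KLF4, and the libraries do not keep strand.

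KLF4 was the more abundant of the pair in Control samples and KLF5 in BRG1 samples. Per kilobase of the canonical transcript, KLF4 stood at 324 ± 45.1 and KLF5 at 56.1 ± 22.1 normalised counts in Control, and at 542 ± 198 and 749 ± 392 in BRG1 samples (SD, n = 3). The ratio of the KLF5 to the KLF4 level per kilobase was 0.212, 0.182 and 0.116 in Control samples 1 to 3, where KLF4 was the more abundant in 3 of 3. In BRG1 samples 1 to 3 it was 1.58, 1.31 and 1.09, where KLF5 was the more abundant in 3 of 3. The difference in the log2 ratio was 2.99, with a two-sided exact permutation p of 0.1 over unpaired splits, the smallest that 3 samples against 3 allow. This difference follows from the values of KLF5 and KLF4 already given and is no separate result. In BRG1 samples the ranges of both genes overlapped across samples, from 361 to 1146 for KLF5 and from 332 to 727 for KLF4, so that the order there holds within samples.

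TFAP2C (chromosome 20, 56629306 to 56639283) started near the floor. It held 9.75, 1.17 and 2.27 normalised counts in Control samples 1 to 3 and 39.2, 16.6 and 13.4 in BRG1 samples 1 to 3. The groups did not overlap, although Control sample 1 and BRG1 sample 3 were close. The log2 fold change was 2.44 ± 0.96 (SE) (DESeq2 adjusted p 0.0760, edgeR adjusted p 0.101), and the 95% interval of the fold ran from 1.48 to 20.0. With the replicate block TFAP2C rose by 2.66 on the log2 scale (DESeq2 adjusted p 0.0492, edgeR adjusted p 0.0187). This rests on 12 counts in all Control and 83 in all BRG1 libraries. TFAP2C passed the edgeR filter through its BRG1 samples only, so its edgeR values depend on a filter met where it was high. Without Control replicate 1 the unpaired fit called TFAP2C as well (log2 fold change 3.70, DESeq2 adjusted p 0.0133), whereas without BRG1 replicate 1 the uncalled value was 1.81.

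**Figure D2:**
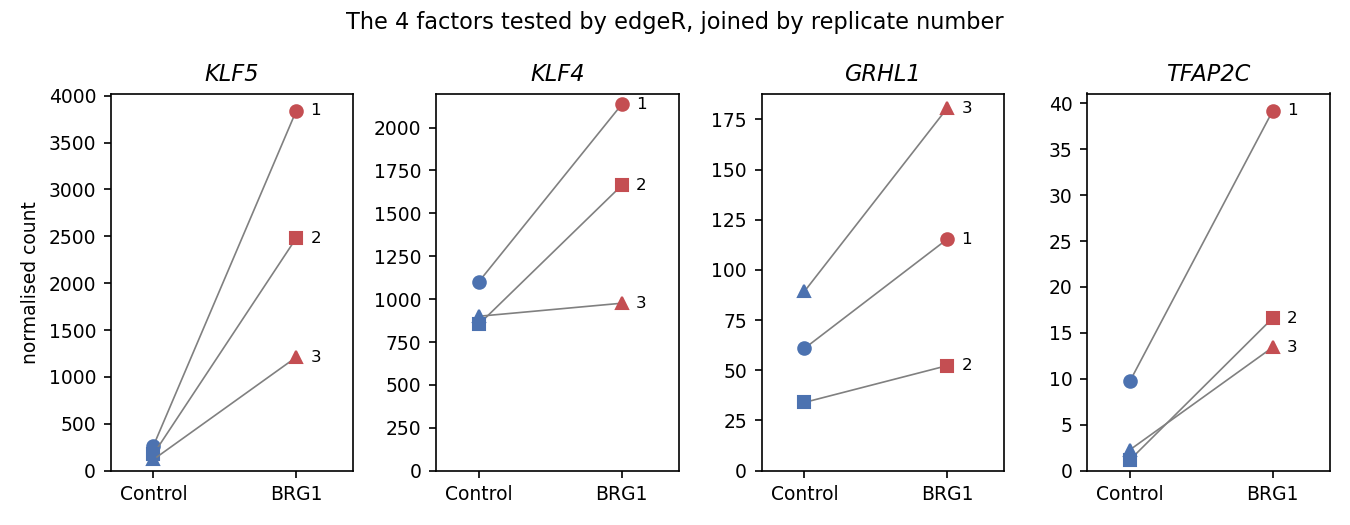
Normalised counts of KLF5, KLF4, GRHL1 and TFAP2C in Control and BRG1 samples, each panel on its own linear axis, with lines joining the samples that share a replicate number. All lines go up, from a fold of 1.08 for KLF4 in replicate 3 to 14.4 for KLF5 in replicate 1. Of all genes, 24.9% were likewise higher within each number. The panels show the 4 factors kept by the edgeR filter, which TFAP2C passed through its BRG1 samples only.

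Among the grainyhead factors, GRHL1 alone was well counted. GRHL1 (chromosome 2, 9951693 to 10002277) held 60.9, 34.0 and 89.3 normalised counts in Control samples 1 to 3 and 115, 52.3 and 181 in BRG1 samples 1 to 3. BRG1 sample 2 lay within the Control range. The log2 fold change was 0.90 ± 0.54 (SE) and was not called (DESeq2 adjusted p 0.365, edgeR adjusted p 0.417), also not with the block (0.0956 and 0.0584). Within numbers the fold was 1.89, 1.54 and 2.02, and 24.9% of all genes were likewise higher within each number. GRHL3 (chromosome 1, 24199558 to 24364482), the factor of skin barrier closure, held between 3.03 and 15.8 normalised counts in Control and between 8.96 and 26.8 in BRG1 samples, with a difference of 0.84 ± 0.92 (SE) on the log2 scale (DESeq2 adjusted p 0.732). The GRHL3 value was 0.09 without BRG1 replicate 1 and 1.62 without Control replicate 1, and it was called in neither case. GRHL2 (chromosome 8, 101492439 to 101669726) is the grainyhead factor of simple epithelia and an activator of E-cadherin. It had 3 counts in all Control libraries and 1 in all BRG1 libraries, with 3 counts or fewer in every library, so that no fold is given and no change was detectable at this depth.

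TP63 (chromosome 3, 189631389 to 189897276) did not move with BRG1 beyond its spread. It held 8.53, 2.35 and 10.6 normalised counts in Control samples 1 to 3 and 5.08, 5.81 and 7.46 in BRG1 samples 1 to 3. All BRG1 values lay inside the Control range. The log2 fold change was -0.26 ± 0.96 (SE) (DESeq2 adjusted p 0.942), and the 95% interval of the fold ran from 0.225 to 3.08, so that a rise of the size seen for KLF5 lies outside it. Its sign turned without Control replicate 3 (log2 fold change 0.16). The table sums all TP63 transcripts, and isoforms with and without the transactivation domain cannot be told apart.

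OVOL1 and OVOL2 were at the floor in Control, with 3 counts or fewer in every library. OVOL1 (chromosome 11, 65787063 to 65797214) had 5 counts over the Control and 13 over the BRG1 libraries, a depth-adjusted ratio of 2.39 with a 95% counting interval of 0.801 to 8.58, and an antisense gene covers 27.3% of its exonic bases. OVOL2 (chromosome 20, 17956979 to 18059188) held 0, 1.17 and 1.51 normalised counts in Control samples 1 to 3 and 4.35, 4.98 and 5.97 in BRG1 samples 1 to 3. These groups did not overlap, and the depth-adjusted ratio of 16 to 3 counts was 4.91 with a 95% counting interval of 1.41 to 26.3. Counting intervals cover counting error only and not the spread between samples. DESeq2 called neither gene (adjusted p 0.766 for OVOL1 and 0.390 for OVOL2).

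Counted together, 1 of the 9 factors was called higher and 0 lower by DESeq2, against 11.0% of all 15991 genes tested called higher and 1.84% called lower, so that the share called was close to the background. At an unadjusted DESeq2 p under 0.05, 3 factors were higher and 0 lower, against 13.4% and 4.89% of the 18096 genes with a count. edgeR tested 4 of the 9 and called 1 higher and 0 lower, with backgrounds of 9.57% and 1.02%, and limma-voom called 1 higher and 0 lower, with backgrounds of 9.31% and 1.19%. With the replicate block, DESeq2 and edgeR each called 3 higher and 0 lower. The backgrounds there were 13.4% higher and 6.62% lower for DESeq2 and 13.7% and 5.68% for edgeR. The groups did not overlap for 3 of the 9, higher with BRG1 in each case, against 15.4% of all genes with a count higher and 8.88% lower. The fitted differences had a median of 1.07 on the log2 scale over the 8 factors with an adjusted p, and 0.79 with floor values set at their bound, against -0.01 over all genes tested, and 48.3% of these had a log2 fold change above 0.

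**Figure D3:**
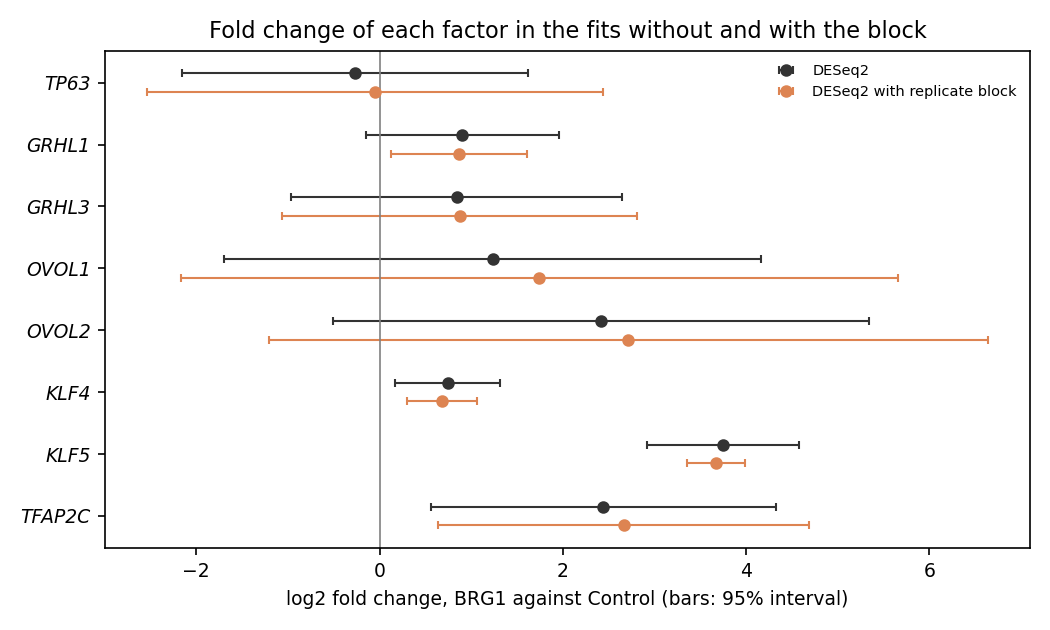
Log2 fold change of BRG1 against Control with its 95% interval for 8 factors, from DESeq2 without (black) and with (orange) the replicate block. The KLF5 interval lies far above 0 in both fits, those of KLF4 and TFAP2C lie above 0 in both, and that of GRHL1 does so only with the block. Those of TP63, GRHL3, OVOL1 and OVOL2 span 0 (GRHL2, at the floor in both groups, is left out). The intervals are not adjusted for the number of genes tested.

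The levels of the factors were ordered per kilobase of the canonical transcript, on the scale of normalised counts. In Control the order was KLF4, KLF5 and GRHL1 (17.2 ± 7.76, SD, n = 3), whose ranges did not overlap, followed by GRHL3 at 3.05 and by TFAP2C, TP63, OVOL1, OVOL2 and GRHL2 between 1.54 and 0.233, where each neighbour's range overlapped the next. In BRG1 samples GRHL1 followed KLF5 and KLF4 at 32.5 ± 17.98, and then came TFAP2C at 8.06 ± 4.90 and GRHL3 at 5.28 ± 3.62 (SD, n = 3). OVOL2 was next at 3.22 and lay above both OVOL1 (1.34) and TP63 (1.24), while GRHL2 stayed last at 0.0462. OVOL2, OVOL1 and TP63 had only 16, 13 and 19 counts over the BRG1 libraries. Their order depends on transcript lengths of 1583, 2988 and 4944 bases. Before division by length, TP63 (6.12 normalised counts on average) lay above OVOL2 (5.10) in BRG1 samples. The ranges of TFAP2C and GRHL3 overlapped, and so did those of GRHL3 and OVOL2 and of OVOL1 and TP63.

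The genes whose profile was most like that of KLF5 were found among 14215 genes with a mean of at least 10 normalised counts, by the root mean square difference of log2(normalised count + 1) over 6 samples after centring on Control. The closest were SERTAD4 (0.140) and EBI3 (0.146), both values on the log2 scale. Like KLF5, each was highest in BRG1 sample 1 and lowest in Control sample 3, and SERTAD4 ran from 21.2 to 45.1 normalised counts in Control and from 185 to 791 in BRG1 samples. These points share libraries and a 2-group structure, and the likeness is a description.

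Relatives of the 9 factors in the same families were read next. Of 25 further members of the families of the 9 factors, 21 had a DESeq2 adjusted p, of which 1 was called higher and 0 lower. Their median was 0.14 on the log2 scale. Over all genes tested, DESeq2 called 11.0% higher and 1.84% lower. The called gene was KLF6, an inducible Krüppel-like factor, with a difference of 1.22 ± 0.42 (SE) on the log2 scale (DESeq2 adjusted p 0.0292), and edgeR called it with the block (adjusted p 7.8e-04) and not without it (adjusted p 0.147). With the block 3 paralogs were called higher, by DESeq2 as by edgeR, against 13.4% and 13.7% of all genes tested. The log2 fold change was -0.10 for TP73, a relative of TP63, and 0.53 for TFAP2A, the AP-2 alpha gene of skin, and neither was called (DESeq2 adjusted p 0.977 and 0.666). OVOL3 had 0 normalised counts in Control and 0.725 on average in BRG1 samples.

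Other transcription factors of epithelial identity included several called genes. Of 20 such genes, 18 had an adjusted p, of which DESeq2 called 7 higher and 0 lower, whereas edgeR called 4 and 0. With the block the counts were 8 and 0 by DESeq2 and 7 and 0 by edgeR. The shares of all genes tested called higher were 11.0% by DESeq2 and 9.57% by edgeR, and 13.4% and 13.7% with the block. The median of the list was 0.97 on the log2 scale, and 0.73 with floor values at their bound. The ETS factors EHF and ELF3 rose by 4.83 and 3.27 on the log2 scale (DESeq2 adjusted p 1.7e-07 and 9.9e-05). ELF5 had 0 counts in every Control library and rose at least 2.74-fold against a floor of 3 counts per library (DESeq2 adjusted p 0.0125), and with the replicate block its call was lost (DESeq2 adjusted p 0.0664). ZNF750, a partner of p63 and KLF4 in the epidermis, differed by 0.20 on the log2 scale (DESeq2 adjusted p 0.894).

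Known target genes of the factors were then counted, list by list. Of 23 p63 target genes, DESeq2 called 15 higher and 0 lower and edgeR 14 and 0. Among all genes tested, DESeq2 called 11.0% higher and edgeR 9.57%. The median log2 fold change of the list was 2.71, while TP63 itself lay between 5.08 and 7.46 normalised counts in BRG1 samples. The basal keratin KRT5 rose from 7.64 ± 2.53 to 914 ± 735 normalised counts and SFN, which encodes 14-3-3 sigma, from 26.4 ± 2.63 to 1206 ± 859 (SD, n = 3). FRAS1, an extracellular matrix gene of the basement membrane, rose by 4.46 on the log2 scale. KRT14, the keratin partner of KRT5, had 7 counts in all Control libraries and a depth-adjusted ratio of 235 with a 95% counting interval of 114 to 585, a value that could include reads of its near copies KRT16 and KRT17. CLCA2, DST, BMP7 and JAG2 had log2 fold changes of -1.96, -0.17, -0.21 and -0.17, and none was called.

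Of 18 grainyhead target genes, 13 had an adjusted p, of which DESeq2 called 3 higher and 0 lower and edgeR 2 and 0. The background of all genes called higher was 11.0% by DESeq2 and 9.57% by edgeR. The median log2 fold change of the list was 0.11. CGN, the tight junction gene of cingulin, rose from 1457 ± 61.5 to 7156 ± 2533 normalised counts, and TGM1, the transglutaminase of the cornified envelope, from 55.2 ± 8.62 to 532 ± 289 (SD, n = 3). CLDN4 differed by 1.41 on the log2 scale (DESeq2 adjusted p 0.00564, edgeR adjusted p 0.0645), and with the block edgeR called it too (adjusted p 0.0315). With the block DESeq2 and edgeR each called 4 of the list higher and 0 lower, against 13.4% and 13.7% of all genes called higher. KRT8 and KRT18, keratin genes of simple epithelium that are not on the list, rose by 5.20 and 2.57 on the log2 scale. CDH1, the E-cadherin gene, held 3.65, 57.5 and 3.79 normalised counts in Control samples 1 to 3 and 31.2, 8.31 and 23.9 in BRG1 samples 1 to 3. Its log2 fold change was -0.03 without and 1.30 with the block, and it was called in neither fit (DESeq2 adjusted p 0.995 and 0.518). EPCAM had 1 count in Control and 0 in BRG1 libraries, and 5 of the 18 genes had 3 counts or fewer in every library, as GRHL2 did.

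Of 12 target genes of KLF4, KLF5 and AP-2 gamma, 10 had an adjusted p, of which DESeq2 called 4 higher and 0 lower and edgeR 5 and 0. The all-gene shares called higher were 11.0% and 9.57%. The median log2 fold change of the list was 0.90. IVL, which encodes involucrin, had 8 counts in all Control libraries and rose to 1292 ± 843 normalised counts (SD, n = 3), a depth-adjusted ratio of 551 with a 95% counting interval of 279 to 1278. The mucosal keratin KRT4, with 2 counts in all Control libraries, rose to 1150 ± 1132 normalised counts (SD, n = 3). CCND1 and EGFR, genes of proliferation and growth factor response, had log2 fold changes of 2.77 and 2.39 (DESeq2 adjusted p 5.0e-07 and 1.1e-05). KRT19 had 0 counts in every Control library and 0.519 normalised counts on average in BRG1 samples, and CDKN1A had a log2 fold change of 0.00.

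Of 7 genes that OVOL1 and OVOL2 are known to repress, DESeq2 and edgeR each called 2 higher and 0 lower. DESeq2 called 11.0% of all genes tested higher and edgeR 9.57%. The called genes were ZEB2, higher by 2.33 on the log2 scale (DESeq2 adjusted p 3.3e-04), and SNAI2. SNAI2 had 2 counts in all Control libraries and 52.5 ± 36.8 normalised counts in BRG1 samples (SD, n = 3). Both genes encode repressors of epithelial genes. ZEB1, the best known OVOL2 target, differed by 0.22 on the log2 scale (DESeq2 adjusted p 0.725).

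**Figure D4:**
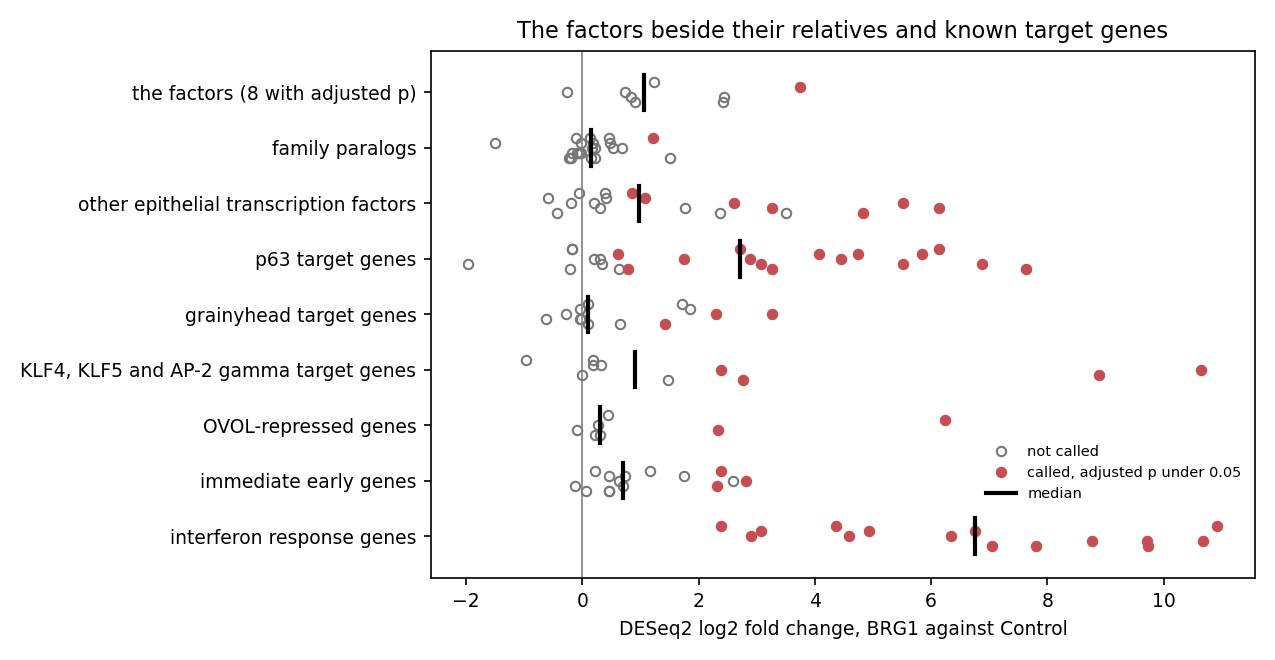
DESeq2 log2 fold change of 8 of the 9 factors, their family paralogs, other epithelial transcription factors, known target genes, immediate early genes and interferon response genes, 1 point per gene with an adjusted p, filled red where called, with a black bar at each median. The p63 target genes center on 2.71 while the family paralogs center on 0.14, and fitted values of genes with almost no Control counts depend on the fit.

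Interferon response genes and immediate early genes were also read in the same comparison. All 15 interferon response genes rose by DESeq2 and by edgeR, with a median log2 fold change of 6.75 and a summed level of 21855 to 25698 normalised counts in Control and of 264135 to 290657 in BRG1 samples. Immediate early genes, which respond to the same stimuli as KLF4, had a median log2 fold change of 0.71. Of these 15 genes, 3 were called higher without the block and 11 with it by DESeq2, and 2 and 9 by edgeR. In these fits 0 were called lower. The shares of all genes called higher without and with the block were 11.0% and 13.4% by DESeq2 and 9.57% and 13.7% by edgeR. The part of both lists in the values of KLF4 and KLF5 was not tested.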

How the data were processed

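COV434 RNA was sequenced as unstranded poly(A) libraries of paired 78 base reads. The authors aligned reads to hg38 with STAR (2.5.3a, per the labels), estimated transcript abundances with salmon (0.8.2) and collapsed these to gene level in tximport. What was deposited is 1 estimated count for each gene and sample, derived by the authors from length-scaled TPM, in which a model divides reads that similar genes share. They were rounded to whole numbers. Groups and replicate numbers were taken from the sample titles. BRG1 was tested against Control with the Wald test of DESeq2 (1.42.0, R 4.3.3, median-ratio size factors, no covariate) over all 18096 genes with a count, with Benjamini-Hochberg adjustment over the 15991 genes kept by independent filtering, and a gene was called at an adjusted p under 0.05. The test of edgeR (4.0.16, quasi-likelihood, TMM factors, 14246 genes after filtering) is given beside it. limma-voom (3.58.1), TMM factors in DESeq2, other low-count filters, an adjusted p under 0.01, the replicate block and fits without each replicate were alternatives.

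The study names 3 biological replicates, and the sample titles number them without stating that equal numbers are paired. The block treats equal numbers as pairs, a choice taken from these same data. Deviations from the group means of same-numbered Control and BRG1 samples correlated positively over 11686 genes (r = 0.522, 0.524 and 0.614 for numbers 1 to 3). Between different numbers r ran from -0.523 to 0.0734. Deviations cancel within each group, so the lower values between different numbers are no separate support for pairing. The blocked fit is given where it changes the call of a named gene or moves a count of calls by over 1.5 times. A group with 3 counts or fewer in every library was treated as at the floor. Gene positions and transcript lengths came from GENCODE 44 (GRCh38) and promoter windows from RefSeq. The 9 factors and all gene lists were chosen with earlier results of these data known. All 9 factors were named, along with SMARCA4, SMARCA2, the up to 5 called genes of each list with the smallest adjusted p, genes of a list that a sentence on a factor needed, and the 3 genes most like a called factor. Some genes that this rule names are not reported here. Genes of the lists named without a call were chosen after their values were seen.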

Additional observations from a re-analysis of the deposited data

How the results depend on the processing

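KLF5 was called in every alternative fit run, with log2 fold changes between 3.30 and 4.08 when a replicate was left out, and no factor was called lower in any. The block changed no call among the factors other than those of KLF4 and TFAP2C. The uncalled TP63 value was -0.68 to 0.16 when a replicate was left out, turning in sign without Control replicate 3. The number of factors called higher (1) was 3 with the replicate block, by DESeq2 and by edgeR, and ran from 1 to 2 when a replicate was left out, with TFAP2C added without Control replicate 1 and KLF4 without BRG1 replicate 3. TP63, GRHL2, GRHL3, OVOL1 and OVOL2 were removed by the filter of edgeR and limma-voom and have no value there. Over all genes the number called lower (294) dropped to 146 by edgeR and 169 by limma-voom, was 1035 with the replicate block and 809 in the blocked edgeR fit, and was 117 without BRG1 replicate 2 and reached 596 without BRG1 replicate 3. Family paralogs called higher (1) came to 0 by edgeR with or without its filter, by limma-voom and at an adjusted p under 0.01, to 3 in either blocked fit, and 0 (without Control replicates 2 or 3 or BRG1 replicates 1 or 2) to 2 (without BRG1 replicate 3) in the fits that omit a sample. Other epithelial transcription factors called higher (7) came to 4 by edgeR, by limma-voom and at an adjusted p under 0.01, and ran from 4 (without Control replicate 3 or BRG1 replicate 1) to 6. OVOL-repressed genes called higher (2) were 1 with DESeq2 on genes with 10 counts in 3 samples. Immediate early genes called higher (3) were 11 with the block by DESeq2 and 9 by edgeR, 1 with limma-voom or an adjusted p under 0.01, and ran from 1 (without Control replicate 2 or BRG1 replicate 2) to 4. Markers of other cell types called higher (3) ran from 3 to 5 (without Control replicate 1). The cause of these shifts was not tested. Depth limits TP63, GRHL2, OVOL1 and OVOL2, which had between 4 and 42 counts over all libraries.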

Other observations

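Markers of cell types other than epithelium were also read, since COV434 was first described as a granulosa cell line. Of 8 granulosa cell genes, 5 had an adjusted p and edgeR tested 4, and DESeq2 and edgeR each called 2 higher and 0 lower. CYP19A1, the aromatase gene, rose from 23.3 ± 8.03 to 322 ± 116 normalised counts and INHBB, a subunit gene of inhibin and activin, from 13.9 ± 3.96 to 176 ± 65.9 (SD, n = 3). FOXL2, the defining granulosa factor, had 1 count in all Control libraries and 0 in the BRG1 libraries. The summed level of the list was 312 to 489.9 in Control and 814 to 1174 in BRG1 samples. Most of this rise lay in CYP19A1 and INHBB. The mean of AMH was 295 in Control and 408 in BRG1 samples and that of INHA 41.9 and 38.2, and neither gene was called.

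Of 11 fibroblast, endothelial and blood cell genes, DESeq2 and edgeR each called 3 higher and 0 lower, and the summed level was 7950 to 10411 in Control and 11805 to 16164 in BRG1 samples. The endothelial gene VWF rose from 44.8 ± 32.05 to 3498 ± 238 normalised counts (SD, n = 3). CDH5, which encodes VE-cadherin, had 2 counts in all Control libraries and 143 ± 117 normalised counts in BRG1 samples (SD, n = 3). Among the fibroblast genes, PDGFRA rose by 3.40 on the log2 scale (DESeq2 adjusted p 8.1e-06). The fibroblast genes COL1A1, COL3A1, DCN and LUM had log2 fold changes of 0.91, -0.04, -0.30 and -0.44, and none was called. The blood cell genes PTPRC and CD68 had values of 0.04 and 0.67 and were not called either without the block. With the replicate block CD68 was called higher (DESeq2 adjusted p 0.00132, edgeR adjusted p 0.0343), whereas PTPRC was not. PECAM1, another endothelial gene, differed by 0.83 and was not called (DESeq2 adjusted p 0.817), and CD3E had 0 counts in Control. The part of these genes in the values of the epithelial factors was not tested.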
